A study of Mus musculus with 6 samples.

Results

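Genes of ribosome biogenesis and of RNA polymerase I were followed in neural stem cells in which the transcription factor Sox4 was targeted. Poly(A) RNA was sequenced from E14.5 (embryonic day) neural stem cells of CD-1 mice, a commercial stock grown as a monolayer with EGF and bFGF. All cells carried a lentiviral short hairpin RNA (shRNA) and were selected with puromycin at 0.5 µg/mL. Of 6 libraries, 2 carried Sox4 shRNA 1, 2 carried Sox4 shRNA 2, and 2 carried a scrambled shRNA, with the libraries of each group numbered by passage. What was deposited is a single comparison made by the authors, with 1 level per gene for each of 2 conditions. Its header names neither condition and leaves unsaid whether both Sox4 hairpins were pooled. Each direction below therefore sets the second condition against the first. No value per library is given, so no standard deviation or n can be attached to a level, and the sequencing depth is unknown.

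The members are the 74 gene rows, of 12316 in the table, whose single gene symbol matches a fixed set of names for nucleolar assembly factors, small nucleolar ribonucleoprotein (snoRNP) proteins and RNA polymerase I subunits. Of the 38 symbols written out in full in that set, 37 have a row of their own. Wdr74, a 60S assembly factor, shares its row with 1700092M07Rik and is not counted. Levels are taken as FPKM (fragments scaled for transcript length and library size), which is what Cuffdiff writes, although the header states no unit. A gene is said to have risen or fallen only where the authors flagged it at a q of 0.05.

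Ribosomes are built in the nucleolus. RNA polymerase I transcribes a long precursor that is cut, folded and chemically modified into the rRNAs of both subunits. Box C/D and box H/ACA snoRNPs guide methylation and pseudouridylation, the small subunit (SSU) processome shapes the 40S part, and separate factors assemble the 60S part. Demand for this machinery is high in dividing cells such as neural stem cells.

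Sox4, the targeted gene, cannot check the labels here, since the conditions are unnamed. It stood at 83.9 in the second condition, against 126.8 in the first, per the authors' deposited table. The authors' deposited table gives it a log2 fold of -0.60 at q = 0.0543, so it was not called. Of 16 neural stem cell and radial glia markers 15 had a row, among them Nes, Sox2 and Vim at 170, 51.1 and 775 in the second condition, against 98.1, 59.7 and 709 in the first, per the authors' deposited table. Of those 15 markers, 4 rose (Nes, Sox1, Gli3 and Notch1) and 2 fell, Fabp7 and Hes5, where 3.17% of all rows rose and 1.83% fell. Fabp7, a lipid carrier abundant in radial glia, fell to 2286 in the second condition, against 4620 in the first, per the authors' deposited table. Hes5, a target of Notch signalling, fell to 14.4 in the second condition, against 37.3 in the first, per the authors' deposited table. The 15 markers summed to 4714 in the second condition, against 6895 in the first, and the 14 without Fabp7 to 2429 in the second condition, against 2274 in the first. Markers of other cells differed too: of 8 astrocyte markers 1 rose and 4 fell, with a summed level of 932 in the second condition, against 1344 in the first. Of 9 oligodendrocyte lineage markers 6 had a row, 0 rose and 2 fell, with sums of 1217 in the second and 1417 in the first condition. Of 9 neuronal markers 6 had a row, 0 rose and 1 fell, at sums of 137 in the second and 136 in the first condition. Of 8 mesenchymal markers 2 had a row, 1 rose and 1 fell, at sums of 56.3 in the second and 32.1 in the first condition. Single abundant genes made up most of each of the other sums. Without Aldoc the astrocyte sum was 136 in the second and 243 in the first condition, and without Olig1 the oligodendrocyte sum was 407 in the second and 480 in the first condition. Without Map2 the neuronal sum was 9.49 in the second and 13.4 in the first condition, and without Acta2 the 1 other mesenchymal marker was at 0.515 in the second and 2.73 in the first condition. No row of the whole table was at a level of 0, so a marker with a row could not be at 0. None of the 7 microglial or 6 endothelial markers had a row. Genes without a row may be silent or merely untested, so absence of those cells cannot be read from this. In bulk RNA, fewer cells of a type and less RNA per cell cannot be told apart, and the part of cell makeup in the values below was not tested.

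Few genes of ribosome production passed the authors' Cuffdiff test. Of the 74 members, 2 rose, 0 fell and 72 were not called. The 2 that rose were Utp20, a factor of the SSU processome, and Rrp1b, a nucleolar paralogue of Rrp1 that binds protein phosphatase 1. The share that rose, 2.70%, was close to the 3.17% of all rows that rose. Of all rows, 1.83% fell, and 4.99% were called in either direction. A weaker lean was seen without adjustment for multiple tests: 12 members were higher and 1 lower at an unadjusted p under 0.05. That is 16.2% of members higher and 1.35% lower, beside 9.96% and 7.53% of all rows. A positive log2 fold was listed for 48 members, or 64.9%, beside 50.5% of all rows. The members' median log2 fold was 0.07, beside 0.0033 over all rows. These counts describe the members and were not tested as a set.

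**Figure D1:**
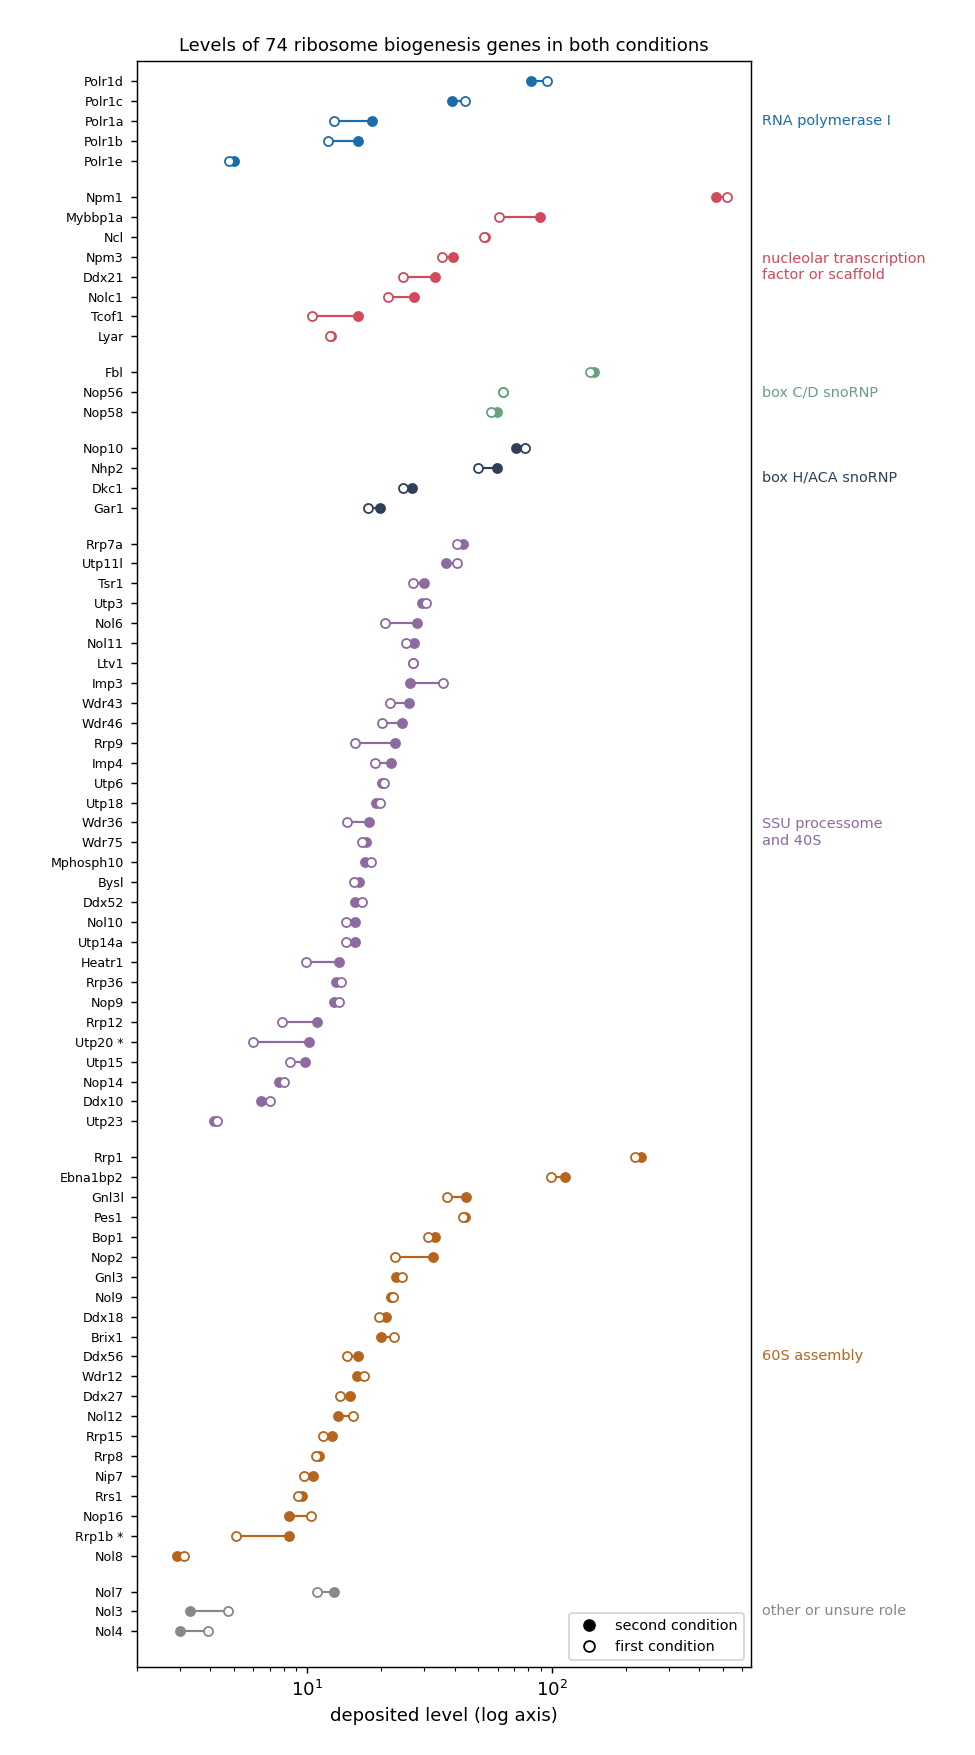
Deposited level (log axis) of each of the 74 members in the second condition (filled) and in the first condition (open), grouped by role, with called genes starred. Most pairs of points nearly touch, and the widest gaps belong to members such as Utp20 (10.2 in the second and 5.97 in the first condition), Rrp1b, Tcof1 and Mybbp1a.

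The members spanned a wide range of levels. They ran from 2.92 to 469 in the second condition, with a median of 19.9, and from 3.12 to 521 in the first, with a median of 18.5. Npm1, nucleophosmin, an abundant nucleolar chaperone, was the highest at 469 in the second condition, against 521 in the first, per the authors' deposited table. Next came Rrp1, a 60S factor, at 231 in the second and 219 in the first condition, and Fbl (fibrillarin) at 149 in the second and 144 in the first condition of the authors' deposited table. Ebna1bp2, another 60S factor, stood at 113 in the second and 99.2 in the first condition of the authors' deposited table. None of these 4 abundant members was called. Reads of Npm1 can be shared with its processed pseudogenes, so its level is uncertain. The levels of 38 members, or 51.4%, differed by under 10%, beside 33.8% of all rows. Among members with a level of at least 5 in the higher condition it was 36 of 70, or 51.4%, beside 36.9% of the 9244 rows that met the same limit.

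Utp20 lies on chromosome 10 (88746607 to 88826804, minus strand, GRCm38). It rose to 10.2 in the second condition, against 5.97 in the first, per the authors' deposited table, or 1.71-fold at q = 0.00304. Rrp1b lies on chromosome 17 (32036100 to 32062865, plus strand). It rose to 8.37 in the second condition, against 5.11 in the first, per the authors' deposited table, or 1.64-fold at q = 0.0225. Its exons overlap Hsf2bp on the other strand, and without strand the reads of both genes cannot be told apart. Its paralogue Rrp1, which is far more abundant, was at a log2 fold of 0.07 at q = 0.909 per the authors' deposited table.

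The promoters of both called genes are shown with those of Nop2 and Heatr1, members with an unadjusted p under 0.05 whose windows hold common growth gene motifs. Each is the 100 bases before the RefSeq transcript start (GRCm38.p6), on the gene's strand, with capitals marking the E-box CACGTG, the motif bound by MYC, and the ETS motif CCGGAAG or its reverse complement CTTCCGG.
Utp20, chr10:88826815-88826914, minus strand: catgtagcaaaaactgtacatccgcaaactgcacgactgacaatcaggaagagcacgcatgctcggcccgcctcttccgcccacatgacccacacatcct
Rrp1b, chr17:32036062-32036161, plus strand: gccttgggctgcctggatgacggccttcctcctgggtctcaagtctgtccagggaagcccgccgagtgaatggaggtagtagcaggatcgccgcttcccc
Nop2, chr6:125131783-125131882, plus strand: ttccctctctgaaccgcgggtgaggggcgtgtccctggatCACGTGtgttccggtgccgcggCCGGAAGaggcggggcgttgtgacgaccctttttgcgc
Heatr1, chr13:12395275-12395374, plus strand: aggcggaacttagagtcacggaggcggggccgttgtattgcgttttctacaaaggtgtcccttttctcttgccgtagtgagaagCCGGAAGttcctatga
Neither called gene holds either motif in the printed stretch, though Utp20 has an E-box elsewhere in its window and Rrp1b is shown for 1 of 2 RefSeq starts. Nop2 holds both, and Heatr1 holds the ETS motif. In the full RefSeq windows (250 bases before to 50 after each start, both strands), which 60 members have, the E-box was in 12 of 66 member promoters, or 18.2%. Over the 9105 genes of the table with such a window, it was in 1164 of 11683 promoters, or 9.96%. The ETS motif was in 24 of the 66, or 36.4%, beside 17.4% of all. As plainer letters, CCAAT was in 39.4% of member promoters, beside 38.3% of all, and TATAAA was in 7.58%, beside 6.64%. Of the 9 members higher at an unadjusted p under 0.05 with a window, 3 held the E-box (Mybbp1a, Nop2 and Utp20) and 2 the ETS motif (Heatr1 and Nop2). These matches are descriptions of letters and were not tested.

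Of the 5 RNA polymerase I subunits among the members 0 were called by Cuffdiff, and 2 were higher and 0 lower at an unadjusted p under 0.05. Over all rows, 9.96% were higher and 7.53% lower at that limit. The catalytic pair had positive log2 folds, and the subunits shared with RNA polymerase III had negative ones. Polr1a, the largest subunit (chromosome 6, 71909053 to 71984935, plus strand), stood at 18.3 in the second condition, against 12.9 in the first, per the authors' deposited table. That is 1.42-fold, with an unadjusted p of 0.006 and q = 0.0954 per the authors' deposited table. Exons of Polr1a overlap Gm26628 on the other strand. Polr1b, which completes the active site, stood at 16.1 in the second and 12.2 in the first condition of the authors' deposited table, 1.33-fold, with a p of 0.0329 and q = 0.248. Neither was called. Polr1e, of the initiation and elongation subcomplex, stood at 5.03 in the second and 4.78 in the first condition of the authors' deposited table. Polr1c and Polr1d, which also belong to RNA polymerase III, had negative log2 folds and were not called. Polr1c was at 39.2 in the second and 44.2 in the first condition, and Polr1d at 81.8 in the second and 95.8 in the first condition, per the authors' deposited table.

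Further subunits, listed under older symbols and not among the members, were Twistnb at 5.76, Cd3eap at 13.1 and Znrd1 at 21.6 in the second condition of the authors' deposited table. In the first condition Twistnb was at 6.46, Cd3eap at 10.4 and Znrd1 at 27.8 per the authors' deposited table, and none was called. The subunits common to all nuclear RNA polymerases, also no members, all had negative log2 folds. Of these 5, Polr2f fell to 64.9 in the second condition, against 123 in the first, per the authors' deposited table, at q = 0.00304. Polr2l was at 11.2 in the second and 16.6 in the first condition and Polr2k at 25.7 in the second and 36.4 in the first condition, per the authors' deposited table, and neither was called. Polr2e and Polr2h had log2 folds of -0.33 and -0.12, with Cuffdiff p-values of 0.878 and 0.607, per the authors' deposited table. At an unadjusted p under 0.05, 2 of the 5 were lower and 0 higher, beside 7.53% and 9.96% of all rows. Together with Polr1c and Polr1d, 7 of 7 shared subunits had negative log2 folds, with a median log2 fold of -0.33, and 1 was called. The subunits specific to RNA polymerase I had positive ones in 4 of 6 cases, with a median log2 fold of 0.20. Transcript length moved with this split: the shared subunits had a median length of 1148 nt and the specific ones of 3492 nt. After the median log2 fold of rows of like length was taken off, the medians were -0.11 for the shared and 0.18 for the specific subunits, and 1 of the 7 shared subunits became positive. This grouping was made after the values were seen and has no test.

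Factors that act at the rRNA genes or as nucleolar scaffolds had the highest median of any role, a log2 fold of 0.25 over 8 members. Of the 8, 7 were positive, beside 50.5% of all rows, and 0 were called. Unadjusted p was under 0.05 for 3, all higher, or 37.5% beside 9.96% of all rows. Tcof1, treacle, which supports transcription by RNA polymerase I, stood at 16.0 in the second condition, against 10.5 in the first, per the authors' deposited table. Its fold of 1.53 came with a p of 0.00265 and q = 0.0566 per the authors' deposited table. Mybbp1a, a nucleolar regulator of rRNA transcription (chromosome 11, 72441355 to 72451768, plus strand), stood at 89.0 in the second and 60.9 in the first condition of the authors' deposited table. Its fold of 1.46 was at q = 0.0587 per the authors' deposited table, and its exons overlap Spns2 on the other strand. With q recomputed over rows with a level of at least 1, both lay just under the threshold, at 0.0483 for Tcof1 and 0.049998 for Mybbp1a.

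Ddx21, a DEAD-box helicase of rRNA transcription and processing, was at 33.2 in the second and 24.5 in the first condition of the authors' deposited table, with a p of 0.0156 and q = 0.164. Nolc1, a chaperone of snoRNPs related to treacle, lay just outside the unadjusted limit, at 27.3 in the second and 21.3 in the first condition of the authors' deposited table with a p of 0.0551. Imp3, described below, lay just inside it at a p of 0.0449 per the authors' deposited table. Ncl, nucleolin, was at 53.1 in the second and 52.5 in the first condition of the authors' deposited table, and its log2 fold was 0.02. Lyar was at 12.4 in the second and 12.3 in the first condition, and Npm3, a relative of nucleophosmin, at 39.2 in the second and 35.6 in the first condition of the authors' deposited table.

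**Figure D2:**
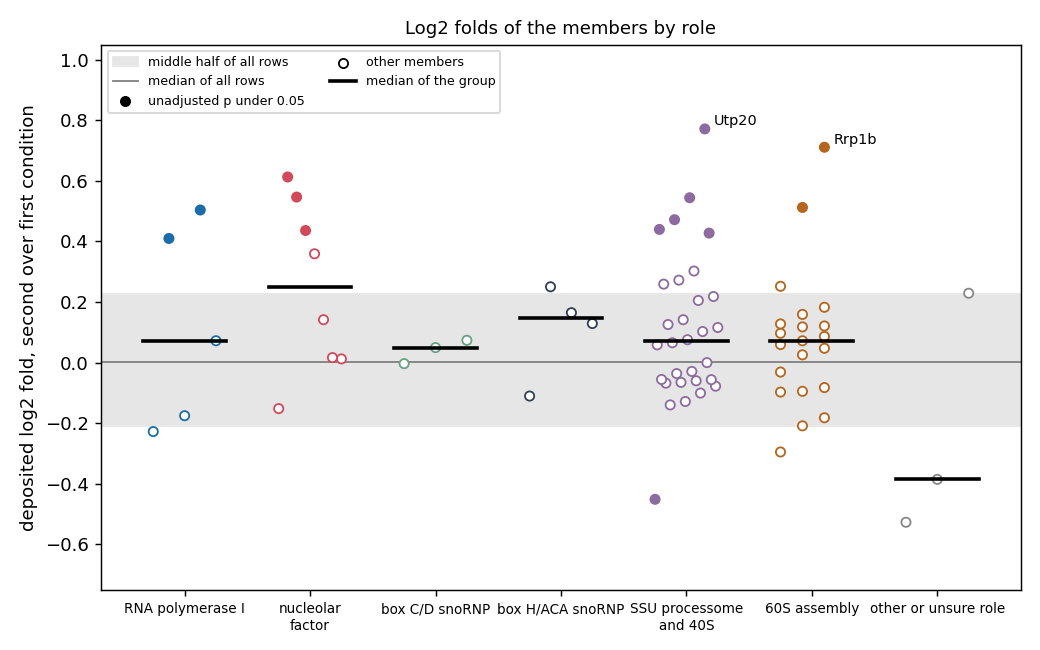
Deposited log2 fold, second over first condition, of the 74 members by role, with filled points for an unadjusted p under 0.05, bars for each role's median, and a band from the lower to the upper quartile of all rows. The band runs from -0.21 to 0.23, 12 filled points lie above it and 1, Imp3, lies below it.

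None of the 7 core snoRNP proteins among the members was called, and 0 had an unadjusted p under 0.05 in Cuffdiff. In the box C/D group, which methylates rRNA, Fbl is the methyltransferase and Nop56 and Nop58 form its scaffold. Nop56 was at 62.9 in the second and 63.0 in the first condition, and Nop58 at 59.5 in the second and 56.5 in the first condition, per the authors' deposited table. The 3 log2 folds ran from -0.0033 to 0.07. In the box H/ACA group, which makes pseudouridine, the synthase Dkc1 was at 26.9 in the second and 24.6 in the first condition of the authors' deposited table. Its partners were at 19.8 for Gar1, 59.5 for Nhp2 and 71.6 for Nop10 in the second condition of the authors' deposited table. In the first condition they were at 17.7 for Gar1, 50.02 for Nhp2 and 77.3 for Nop10 per the authors' deposited table. The 4 log2 folds ran from -0.11 to 0.25, and the lowest p of these 7 snoRNP genes was 0.402, for Nhp2.

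The SSU processome and 40S group was the largest, with 30 members. Of these, 1 rose (Utp20), 0 fell, and 18 had a positive log2 fold, with a median of 0.07. At an unadjusted p under 0.05, 5 were higher and 1 lower. Besides Utp20 these included Rrp9, a protein of the U3 snoRNP (chromosome 9, 106475963 to 106485424, plus strand), at 22.9 in the second condition, against 15.7 in the first, per the authors' deposited table. Its fold was 1.46 at q = 0.145 per the authors' deposited table, and its exons overlap Parp3 on the other strand. Rrp12, known in yeast for export of the 40S precursor, was at 10.9 in the second and 7.86 in the first condition of the authors' deposited table, at q = 0.188. Heatr1 was at 13.4 in the second and 9.88 in the first condition, at q = 0.181, per the authors' deposited table, and overlaps Lgals8 on the other strand. Nol6, a U3-associated factor, was at 28.1 in the second and 20.9 in the first condition of the authors' deposited table, at q = 0.180. None of these 4 was called.

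Imp3 had a fold in the other direction. It belongs to a trio with Imp4 and Mphosph10 that bridges U3 snoRNA and the precursor, and it stood at 26.3 in the second condition, against 35.9 in the first, per the authors' deposited table. Its fold of 0.731 had a p of 0.0449 and q = 0.294 per the authors' deposited table. Imp4 was at 22.0 in the second and 18.9 in the first condition, and Mphosph10 at 17.2 in the second and 18.2 in the first condition, per the authors' deposited table. The trio thus did not share a direction. Imp3 has the second-shortest transcript among the members, at 924 nt, and Npm3 the shortest, at 888 nt.

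Within the SSU processome, the UTP-A complex, known in yeast to join the precursor first, was positive throughout. Its members Heatr1, Nol11, Utp15, Wdr43 and Wdr75 with Cirh1a, which is no member here, gave 6 positive log2 folds of 6, from 0.06 to 0.44, with a median of 0.19. Of these 6, 0 were called and 1, Heatr1, was higher at an unadjusted p under 0.05, beside 9.96% of all rows. The UTP-B complex, with Wdr36, Utp18 and Utp6 besides Pwp2, Tbl3 and Wdr3, which are no members, gave 4 positive of 6 and a median of 0.11. Both groupings were made after the values were seen, and their difference was not tested. Among late 40S factors, Ltv1 was at 27.1 in both conditions, Bysl at 16.3 in the second and 15.5 in the first condition, and Tsr1 at 29.8 in the second and 27.04 in the first condition, per the authors' deposited table.

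The 60S assembly group had 21 members, of which 1 rose (Rrp1b), or 4.76% beside 3.17% of all rows, and 0 fell. A positive log2 fold was listed for 14, or 66.7% beside 50.5% of all rows, with a median of 0.07. At an unadjusted p under 0.05, 2 were higher, or 9.52% beside 9.96% of all rows, and 0 lower. Nop2, an rRNA cytosine methyltransferase (chromosome 6, 125131909 to 125144753, plus strand), was at 32.6 in the second condition, against 22.8 in the first, per the authors' deposited table. Its fold was 1.43 with a p of 0.0075 and q = 0.110 per the authors' deposited table. The complex of Pes1, Bop1 and Wdr12, which processes the 60S precursor, had 0 calls and 0 members with an unadjusted p under 0.05 in Cuffdiff. Pes1 was at 44.2 in the second and 43.4 in the first condition of the authors' deposited table. Bop1 was at 33.2 in the second and 31.3 in the first condition, and Wdr12 at 16.0 in the second and 17.1 in the first condition, per the authors' deposited table. The lowest fold of the group belonged to Nop16, at 8.40 in the second and 10.3 in the first condition, at q = 0.593, per the authors' deposited table. Gnl3, nucleostemin, a GTPase abundant in stem cells, was at 23.1 in the second and 24.4 in the first condition of the authors' deposited table. Its relative Gnl3l was at 44.5 in the second and 37.3 in the first condition of the authors' deposited table, with a p of 0.152.

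The remaining 3 members, Nol3, Nol4 and Nol7, were not placed in any of the roles above. Nol3, an inhibitor of apoptosis, was at 3.29 in the second and 4.75 in the first condition, with a p of 0.293, per the authors' deposited table, the lowest log2 fold of all members at -0.53. Nol4 was at 3.0002 in the second and 3.92 in the first condition, with a p of 0.114, per the authors' deposited table. Nol7 was at 12.8 in the second and 10.95 in the first condition of the authors' deposited table. Without these 3, 47 of 71 members were positive and the median log2 fold was 0.07.

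Transcript length moved with the folds, among the members and over the whole table. The 12 members that were higher at an unadjusted p under 0.05 had a median transcript length of 4597 nt, against 2804 nt for the 61 members with a p of 0.05 or more. Across the 74 members the log2 fold and the logarithm of length had a Pearson r of 0.37, and across 12154 rows of known length it was 0.23. Genes are not independent replicates, so both are descriptions. In the longest 3 of 10 length groups, from 4359 nt up, 7 of 16 members (43.8%) were higher at an unadjusted p under 0.05, beside 19.9% of the other rows. In the middle 4 groups it was 4 of 36 members (11.1%), beside 7.58% of the other rows. In the shortest 3 groups, up to 2221 nt, it was 1 of 22 members (4.55%), Rrp9, beside 3.26%. Members lower at that limit numbered 0 of 16, 0 of 36 and 1 of 22 from the longest to the shortest class, beside 4.60%, 7.23% and 11.2% of other rows. Both members that rose were in the longest class, where 6.89% of the other rows rose. With the median log2 fold of rows of like length taken off, 49 of 74 members were positive, and their median was 0.12. The part of length in the values of single members was not tested.

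**Figure D3:**
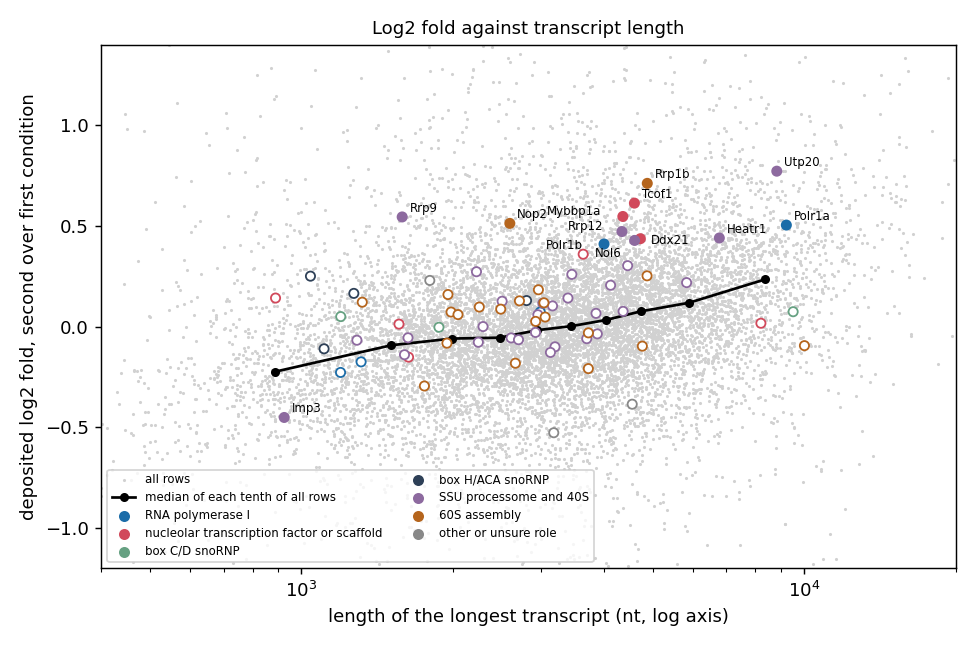
Deposited log2 fold, second over first condition, against the length of the longest transcript (log axis), with members in colour by role (filled for an unadjusted p under 0.05), all rows in grey and the median of rows in each of 10 length groups as a line. The line climbs with length, and the filled points above it have a median length of 4597 nt, with Rrp9 (1586 nt) and Nop2 (2597 nt) the shortest. A few grey points lie outside the axes.

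**Figure D4:**
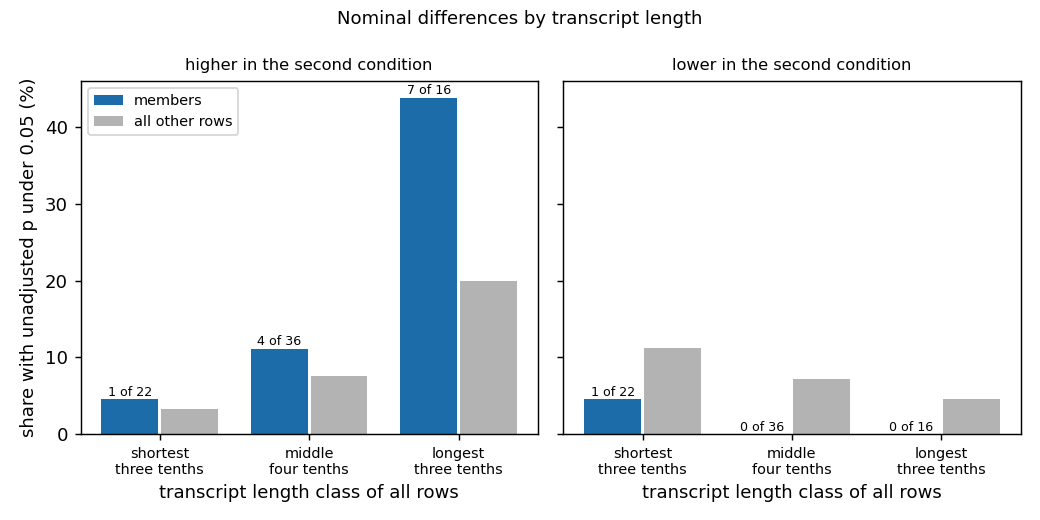
Share (%) of members and of all other rows with an unadjusted p under 0.05, higher (left) or lower (right) in the second condition, in 3 classes of transcript length. In the longest class 43.8% of members and 19.9% of other rows were higher, and in the shortest 4.55% and 3.26% were.

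The 6 lists of other pathway genes hold 119 symbols, of which 114 had a single row of their own. Bud23, Efl1 and Mtrex are newer symbols of genes counted here as Wbscr22, Eftud1 and Skiv2l2, so they had no row. Of the 114 genes, 1 rose (0.877%) and 1 fell, beside 3.17% and 1.83% of all rows. At an unadjusted p under 0.05, 8 were higher (7.02%) and 6 lower (5.26%), beside 9.96% and 7.53% of all rows. Of 33 further symbols listed under SSU processome and 40S factors, 31 had a single row of their own. That list also holds the snoRNP genes Nhp2l1, Naf1 and Shq1. Of the 31 genes, 0 were called, 19 were positive and the median log2 fold was 0.08. At an unadjusted p under 0.05, 3 were higher and 3 lower, each 9.68%, beside the same 9.96% and 7.53% of all rows. Pdcd11, which links processing of both subunits, was at 13.3 in the second and 9.34 in the first condition, at q = 0.0990, per the authors' deposited table. Dhx37, a helicase, was at 13.8 in the second and 10.2 in the first condition of the authors' deposited table. Fcf1 was at 26.4 in the second and 37.96 in the first condition, at q = 0.210, per the authors' deposited table. Of 42 further symbols listed under 60S factors, among them Znhit3 and Znhit6 of box C/D snoRNP assembly, 41 had a row. Of these 41 genes, 1 rose, 0 fell and 26 were positive, with a median of 0.07. The rise was that of Mdn1, midasin, a very large ATPase of 60S assembly with a transcript of 17970 nt. It rose to 5.97 in the second condition, against 3.05 in the first, per the authors' deposited table, 1.96-fold at q = 0.00304. Noc2l was at 56.02 in the second and 38.1 in the first condition at q = 0.0574, and Urb1 at 3.58 in the second and 2.27 in the first condition at q = 0.0651, per the authors' deposited table.

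Initiation and regulation of RNA polymerase I gave 6 positive log2 folds of 12, 0 calls, 0 genes with an unadjusted p under 0.05 and a median of 0.01. The 12 include Twistnb, Cd3eap and Znrd1, which were also counted above as subunits. Ubtf, which binds the rRNA genes, was at 36.1 in the second and 32.9 in the first condition, and Rrn3, the initiation factor, at 51.7 in the second and 49.1 in the first condition, per the authors' deposited table. The lowest p values of this list were those of Baz2a (0.107), Znrd1 (0.143) and Cd3eap (0.262) per the authors' deposited table. Of 17 symbols of exosome and trimming genes, 16 had a row. Of these 16 genes, 0 were called, 0 had an unadjusted p under 0.05 and 10 were positive, with a median of 0.05. Here the lowest p values were those of C1d (0.133), Dis3 (0.224) and Exosc2 (0.266) per the authors' deposited table. Of 10 listed genes of the MYC network, which drives ribosome biogenesis in many cells, 9 had a row of their own and Mycn was not analysed here. Of the 9, 0 were called and 3 were positive, with a median of -0.21. At an unadjusted p under 0.05, 1 was higher (Mga) and 1 lower (Mycl), each 11.1%, beside 9.96% and 7.53% of all rows. Myc was at 25.7 in the second and 31.5 in the first condition, at q = 0.466, per the authors' deposited table. Mycl was at 12.7 in the second and 17.95 in the first condition, and Mga at 4.36 in the second and 3.08 in the first condition, per the authors' deposited table. Max was at 23.3 in the second and 29.0 in the first condition of the authors' deposited table.

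Some members share a gene structure that their names did not select for. In the annotation, 7 of the 74 members, or 9.46%, enclose a snoRNA gene on their own strand, beside 2.02% of all annotated rows. They are Dkc1, Gnl3, Ncl, Nop56, Nop58, Tsr1 and Wdr43. All 7 were without a call and had a p over 0.05, and their log2 folds ran from -0.08 to 0.26, with a median of 0.07. The snoRNAs themselves were not measured by these rows. Exons of 27 members overlap a gene on the other strand, and without strand in the counting the reads of such pairs cannot be told apart.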

How the data were processed

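Poly(A) RNA of 6 libraries was sequenced. Per the submitters' processing notes, mm10 was the build, and the tools were Cufflinks 2.2.1, TopHat2 2.0.9 and Cuffdiff (version not listed). For annotation, strand setting, pooling and depth: not given in the sources used here. Per the file headers, the deposited table holds 2 levels per gene, taken as FPKM, a log2 fold of second over first condition, a score (the test statistic) and a p-value with its q-value. It has 12316 rows and 1 blank line, and no value per library, so nothing was refitted and the authors' Cuffdiff q was used throughout. The labels do not tell whether passages were independent cultures, so the authors' p-values may measure technical spread.

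Members were matched by symbol, and their roles and the other lists were chosen with earlier results of these data known. Named genes are the called members, those with an unadjusted p under 0.05, the 5 highest and lowest folds, the 5 highest levels and the small complexes; in other lists, the called genes, the lowest p values, Myc and Mycn. Other genes named were chosen after their values were seen. A listed symbol with several rows, Dimt1, was left out. Positions, longest coding transcripts and overlaps came from GENCODE M21 (GRCm38); 11693 symbols matched as written and 462 by an older name, and promoters came from RefSeq. Length was split into 10 groups over all rows. Steps used Python 3.11.15, pandas 2.3.3, scipy 1.17.1 and matplotlib 3.10.9 and were tested on simulated data.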

Additional observations from a re-analysis of the deposited data

How the results depend on the processing

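The count of 2 members that rose became 1 at a q of 0.01 and 5 at a q of 0.1. It became 4 with q recomputed over rows with a level of at least 1, since fewer tests were adjusted for. The authors' q may have been adjusted over more genes than the 12316 rows, so the part of the level limit was not separated. The count became 1 without the longest of 10 length groups, which removes Utp20. Members that fell numbered 0 under each of these settings. The count of 1 rise in the other pathway lists became 4 at a q of 0.1 and 2 with the recomputed q. The q of Sox4 was 0.0463 when recomputed in that way. The members' median log2 fold lay between 0.07 and 0.12 under the pseudocount of 1, the level limit of 5, centring and both length adjustments. It did so too without the members not placed in a role, and without the longest length group. The last of these, the length adjustment by the basic transcript set and the marker sums without their highest gene were chosen after seeing the data. For initiation and regulation of RNA polymerase I the median was -0.046 with the level limit of 5, and the cause was not tested. For the subunits common to all polymerases it was -0.28 with the length trend taken off, where 1 of 5 was positive. No paired analysis was possible because passages have no values of their own. Leaving out each replicate was likewise not run. Sequencing depth is unknown. The smallest fold called in the whole table, in either direction, was 1.46.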
